A study of Homo sapiens with 4 samples.

Results

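The lysosome and V-ATPase genes were examined in the FOXK2 ChIP-seq of OVCAR5 cells. The set comprised every gene whose symbol begins with ATP6V and 25 named lysosomal genes, and its peaks were all rows of the annotated peak lists assigned to one of these symbols. It held 47 protein-coding genes, of which 22 were ATP6V genes, and 23 ATP6V antisense genes and pseudogenes. These symbols accounted for 34 of 12471 peaks in replicate 1 and for 54 of 27281 peaks in replicate 2. Of the 47 protein-coding genes, 33 had a peak in at least 1 list (70.2%, against 54.4% of all 20033 protein-coding genes). No peak was assigned to the remaining 14, which were ATP6V0B, ATP6V1A, ATP6V1B2, ATP6V1C2, ATP6V1E2, ATP6V1G2, CTSA, CTSS, CTSZ, GAA, HEXA, MCOLN1, NPC2 and PPT1.

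OVCAR5 is an established human ovarian cancer cell line, labelled high grade serous and derived from ascites. The labels give no treatment or genetic change for these cells. Chromatin was fixed with paraformaldehyde and precipitated with an antibody to the forkhead transcription factor FOXK2 in 2 biological replicates of a single condition. The matched input chromatin was not analysed here, and enrichment over input is therefore not given. The single condition allowed no test between conditions. Each replicate has a list of its own, and agreement between the 2 lists is the only replicate check.

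Lysosomes digest proteins, lipids and sugars with hydrolases that need an acidic lumen. The V-ATPase supplies that acidity. Its cytosolic V1 sector hydrolyzes ATP, and its membrane-embedded V0 sector carries protons across the membrane. Many lysosomal genes share a promoter element called CLEAR, built on the E-box CACGTG and bound by TFEB and its relatives, whereas forkhead proteins such as FOXK2 bind sequences of the type TGTTTAC. FOXK proteins are also known as regulators of autophagy genes, whose products deliver cargo to the lysosome.

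Both lists held the peak position, a peak score and the nearest transcription start site (TSS). The score was taken to be a tag count scaled to the library, although the caller settings are not given in the sources used here, and each score was read as a percentile within its own list, with 100 for the strongest peaks. Scores were whole multiples of 0.1886 in replicate 1, to within 0.0049, and of 0.1487 in replicate 2, to within 0.0050. If each step is 1 tag, the weakest peak of any gene held 16 and 21 tags, and the median peak held 31 and 49 tags.

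Lysosome and V-ATPase genes carried FOXK2 peaks more often than protein-coding genes in general. A peak at any distance was assigned in both replicates to 21 of 47 members (44.7%), against 5734 of all 20033 protein-coding genes (28.6%). A peak of the promoter class, which by HOMER's default lies from 1000 bp upstream to 100 bp downstream of the start of any annotated transcript, was found in both replicates at 11 members (23.4%), against 9.31% of all protein-coding genes. Within 1000 bp of the assigned TSS on either side the count was 12 members (25.5%), against 11.5%. Member genes were of ordinary length, with a median of 25792 bp, compared with 24130 bp for all protein-coding genes. Members with a peak in both replicates had a median length of 29532 bp, and all protein-coding genes with a peak in both had one of 43740 bp. The members were chosen with earlier results of these data known, so these shares are descriptions without a test and the excess over all genes is not independent evidence. Another 57 lysosomal genes, described at the end, had promoter peaks in both replicates at 12.3%. How many of the background genes are transcribed in OVCAR5 was not tested.

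Member peaks sat at promoters more often than peaks in general. The promoter class held 16 of 34 member peaks in replicate 1 (47.1%, Wilson 95% interval 31.5% to 63.3%) and 21 of 54 in replicate 2 (38.9%, 27.0% to 52.2%), against 21.7% and 18.0% of all peaks. The intervals cover counting error only. An overlap of at least 1 bp with the other list was seen for 23 of 34 member peaks of replicate 1 (67.6%) and 24 of 54 of replicate 2 (44.4%), against 74.9% and 34.2% of all peaks. For promoter peaks the overlap was 13 of 16 (81.2%) and 13 of 21 (61.9%), against 79.1% and 43.9% of all promoter peaks. Promoter peaks were assigned to 15 protein-coding members in replicate 1 (31.9%, against 11.9% of all protein-coding genes) and to 20 in replicate 2 (42.6%, against 21.2%). At least 1 list had one for 24 members (51.1%, against 23.8%), of which 11 had it in both lists and 13 in 1 list only. Of all protein-coding genes, 4762 had one in at least 1 list, and 1865 of these had it in both.

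**Figure D1:**
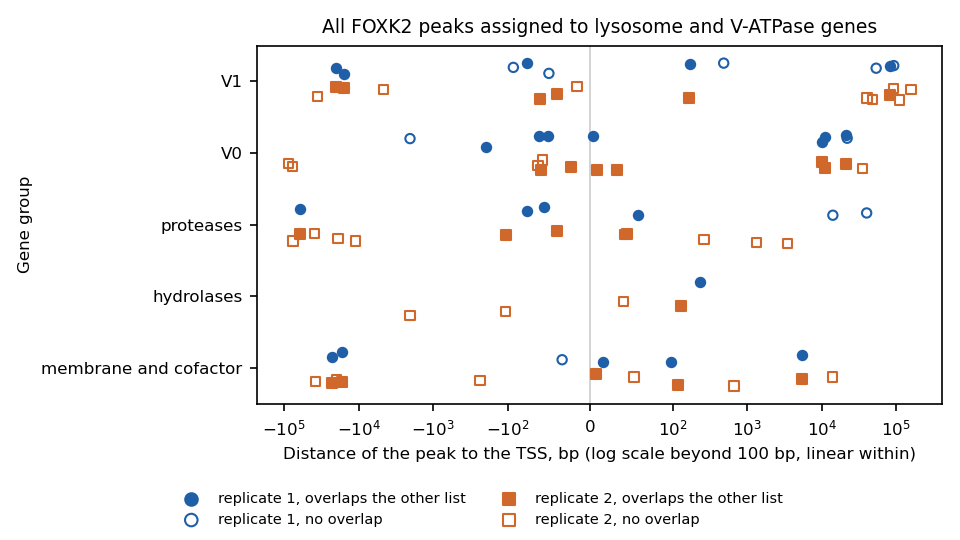
Distance in bp from the TSS of the assigned gene to the centre of each peak, by gene group, with 1 symbol per peak of a protein-coding member. Filled symbols overlap a peak of the other replicate and open symbols do not, and no filled symbol of these protein-coding genes lies between 228 and 5347 bp from the TSS.

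Of the gene groups in the set, V0 subunits had the highest shares. Peaks were assigned in both replicates to 7 of 9 V0 genes (77.8%, against 28.6% of all protein-coding genes), and promoter peaks in both to 4 of 9 (44.4%, against 9.31%). ATP6V0E1, a small subunit of the V0 sector, had the strongest V0 promoter peak, with a score of 13.8 in replicate 1 (percentile 93.8) and 24.8 in replicate 2 (percentile 96.8). ATP6V0C, which forms the proton-conducting ring, scored 12.1 (91.3) and 19.8 (94.1), with centres at +3 and -23 bp from the TSS. Both genes lay well above the median of all promoter peaks, which was at percentile 60.8 in replicate 1 and 64.7 in replicate 2. ATP6V0D1, the widely expressed form of the subunit that links the ring to the central stalk, scored 6.98 (65.1) and 11.6 (78.8). ATP6V0E2, a paralog of ATP6V0E1, was weak in both lists, with scores of 4.15 (14.6) and 4.76 (19.1), and its 2 peaks had only 31 bp in common. ATP6V0A1, a form of the large proton-channel subunit, is among the 7 V0 genes with peaks in both replicates although its peaks did not overlap. It had an intergenic peak at -2045 bp in replicate 1 (4.9, percentile 32.7) and a promoter peak in replicate 2 (10.1, percentile 72.1). ATP6V0A2 likewise had a promoter peak in replicate 2 only, a weak one (4.76, percentile 19.1). The sole V0 gene without any peak was ATP6V0B.

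V1 subunits were closer to the general level. Peaks in both replicates were assigned to 4 of 13 V1 genes (30.8%, against 28.6% of all protein-coding genes), and promoter peaks in both to 2 of 13 (15.4%, against 9.31%), ATP6V1D and ATP6V1B1. ATP6V1D, a subunit of the rotating central stalk, had the best mean percentile of all members at 97.4, with promoter scores of 16.6 (rank 449) and 32.1 (rank 462). Its peak, centred at +171 and +163 bp, took its promoter class from the divergent gene EIF2S1, which encodes a translation initiation factor, and was assigned to ATP6V1D by distance. The centre also fell in the GENCODE promoter window of both genes. ATP6V1B1 is the catalytic-head B subunit typical of kidney and inner ear. Its promoter peak was of middling rank in replicate 1 (6.04, percentile 53.7) and strong in replicate 2 (17.4, percentile 91.5). ATP6V1A and ATP6V1B2, which form the catalytic head in most cells, had no peak in either list. Promoter peaks assigned in 1 list only were seen at ATP6V1C1 (8.30, percentile 76.3) and ATP6V1H (6.04, percentile 53.7) in replicate 1 and at ATP6V1F (8.92, percentile 64.7) and ATP6V1E1 (3.72, percentile 3.64) in replicate 2. The ATP6V1F peak overlapped a replicate 1 peak that was assigned to the neighbour FLNC-AS1.

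Among the named lysosomal genes, the proteases had the highest share with promoter peaks. Promoter peaks in both replicates were found at 3 of 9 proteases (33.3%), 1 of 7 other hydrolases (14.3%) and 1 of 9 membrane proteins and cofactors (11.1%). The last 2 shares, of 1 gene each, were near the 9.31% of all protein-coding genes. CTSF, a papain-like cysteine protease, scored 11.5 (89.9) and 30.3 (98.1). CTSD, the major aspartic protease of the lysosome, scored 9.43 (82.9) and 22.9 (96.0). CTSL, another cysteine protease, scored 8.68 (78.7) and 17.1 (91.1). These 3 cathepsins lay above the promoter median of both lists. The other cathepsins of the set had no promoter-class peak. CTSA, CTSS and CTSZ had no assigned peak, CTSC had distal and exon peaks, and CTSB had a single intron peak in replicate 1 at percentile 0.746. LAMP1, the abundant lysosomal membrane glycoprotein, scored 8.30 (76.3) and 13.5 (84.8). ASAH1, the acid ceramidase, was near the bottom of the replicate 1 list with a score of 3.77 (5.37) and near the middle of the replicate 2 list with 7.58 (53.6). This peak, at +228 and +130 bp, took its promoter class from the antisense gene ASAH1-AS1, so that, with ATP6V1D, 2 of the 11 members had their class from another gene and 9 had promoter peaks classed by a transcript of their own. GRN, which encodes progranulin, had overlapping peaks of score 9.05 (81.1) and 23.9 (96.5) at +98 and +117 bp, the first of the promoter class and the second placed in exon 1. The promoter peaks of NEU1, LIPA, NPC1, SCARB2 and TPP1 appeared in replicate 2 only and were all at percentile 41.1 or lower, and that of CD63 appeared in replicate 1 only at percentile 19.4.

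**Figure D2:**
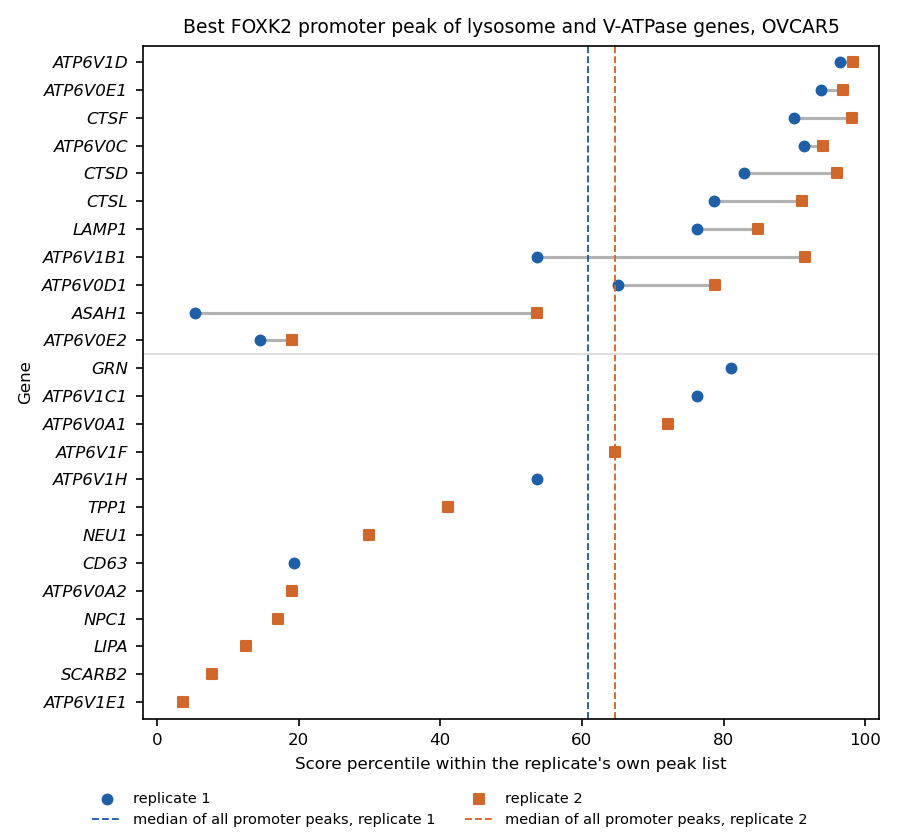
Score percentile of the best promoter peak of each member gene within its own list, with circles for replicate 1, squares for replicate 2 and dashed lines at the median of all promoter peaks (60.8 and 64.7). The 11 genes above the grey line had promoter peaks in both lists, and 9 of them lay above the replicate 2 median in that list.

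Over the 11 genes with promoter peaks in both lists, the median of the mean percentile was 84.9, compared with 75.4 over all 1865 protein-coding genes with such peaks. Medians by replicate were 78.7 and 91.5 for members and 69.0 and 83.6 for all genes. Over every promoter peak, whether or not the gene had one in the other list, the median percentile was 76.3 for the set and 60.8 for all promoter peaks in replicate 1, and 64.7 for both in replicate 2. The lists differ in length, so a percentile in one list is not on the same scale as a percentile in the other.

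Sequences under the promoter peaks that held TGTTTAC or its complement GTAAACA are given first. Both promoter peaks held the heptamer within 100 bp of their centres at 3 of the 11 genes, ATP6V1B1, CTSF and CTSL. Each is printed 5′ to 3′ on the strand of its gene from hg38, at chr2:70935758-70935824, chr11:66568609-66568687 and chr9:87725956-87725984, with the heptamer, read on either strand, and the E-box CACGTG in capitals.
ATP6V1B1 promoter: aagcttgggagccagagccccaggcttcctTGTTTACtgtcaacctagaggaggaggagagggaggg
CTSF promoter: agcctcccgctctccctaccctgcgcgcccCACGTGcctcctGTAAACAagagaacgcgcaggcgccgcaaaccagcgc
CTSL promoter: tgggacagtcaGTAAACAagccacgaacc
The ATP6V1B1 heptamer was 1 bp from the peak centre in replicate 1 and 16 bp from it in replicate 2. In CTSF an E-box and the heptamer were separated by 6 bp, and CTSF was the single gene of the 11 with both motifs. The CTSL stretch overlaps an annotated exon, and its heptamer was 13 and 16 bp from the centres.

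The E-box was found at more member promoters than the heptamer. Counting a match in either list, the heptamer was at 3 of the 11 genes. On the same count, CACGTG lay within 100 bp of a promoter peak centre at 6 of the 11 genes (ATP6V0D1, ATP6V0E1, ATP6V0E2 in replicate 2 only, CTSD, CTSF and LAMP1). The stretches of 4 of them, at chr16:67481182-67481246, chr5:172983714-172983770, chr11:1763965-1764004 and, for LAMP1, chr13:113297033-113297132 and chr13:113297226-113297255, are shown on the strand of the gene with CACGTG in capitals, to set the single E-boxes beside the repeated ones of LAMP1.
ATP6V0D1 promoter: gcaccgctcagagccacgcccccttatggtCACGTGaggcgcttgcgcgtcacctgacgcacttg
ATP6V0E1 promoter: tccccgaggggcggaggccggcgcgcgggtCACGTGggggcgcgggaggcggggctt
CTSD promoter: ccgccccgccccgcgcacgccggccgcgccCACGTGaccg
LAMP1 promoter: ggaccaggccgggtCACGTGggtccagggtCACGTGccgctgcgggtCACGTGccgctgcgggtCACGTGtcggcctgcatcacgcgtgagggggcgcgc
LAMP1 start region: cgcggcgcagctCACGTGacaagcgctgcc
The longer LAMP1 stretch held 4 copies of CACGTG, the last 3 of them each separated by 11 bp. Of these, the 2 last copies were within 100 bp of the replicate 1 centre and the 3 last within 100 bp of the replicate 2 centre, and the first copy was outside both windows. In the other direction LAMP1 had 2 more copies, at 45 and 72 bp from the replicate 1 centre and at 53 and 80 bp from the replicate 2 centre, of which the farther one is printed as the start region and overlaps an annotated exon. Both read TCACGTGA, the core of the CLEAR element, as did the E-box of ATP6V0D1. ATP6V1D, ATP6V0C and ASAH1 had neither CACGTG nor TGTTTAC within 100 bp of the centre in either list, which says only that these letters are not in that window.

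Set against all promoter peaks, the E-box stood further from the general level than the heptamer did. Among member promoter peaks, CACGTG was found in the 100 bp on either side of the centre in 8 of 16 in replicate 1 (50%, Wilson 95% interval 28.0% to 72.0%) and in 7 of 21 in replicate 2 (33.3%, 17.2% to 54.6%). The same share over all promoter peaks was 10.7% and 10.1%, and over windows placed 2000 bp to each side of all peaks it was 2.04% and 2.01%. The 8 member peaks of replicate 1 with CACGTG include that of the pseudogene ATP6V0CP3. Within 50 bp of the centre the member share was lower, at 6 of 16 (37.5%, 18.5% to 61.4%) and 4 of 21 (19.0%, 7.67% to 40.0%), against 7.05% and 5.91% of all promoter peaks. The CLEAR core TCACGTGA, which contains CACGTG, was in 3 of 16 (18.8%) and 2 of 21 (9.52%), against 1.66% and 1.67% of all promoter peaks. TGTTTAC was in 3 of 16 (18.8%, 6.59% to 43.0%) and 3 of 21 (14.3%, 4.98% to 34.6%), against 14.4% and 10.9%, so the member intervals enclosed the general share. Member promoter peaks had a median GC content of 68.9% and 65.2%, compared with 63.2% and 63.7% for all promoter peaks, and the part of base composition in the E-box share was not tested. All motifs were searched on both strands, and a match is a description of sequence and not a site of binding.

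**Figure D3:**
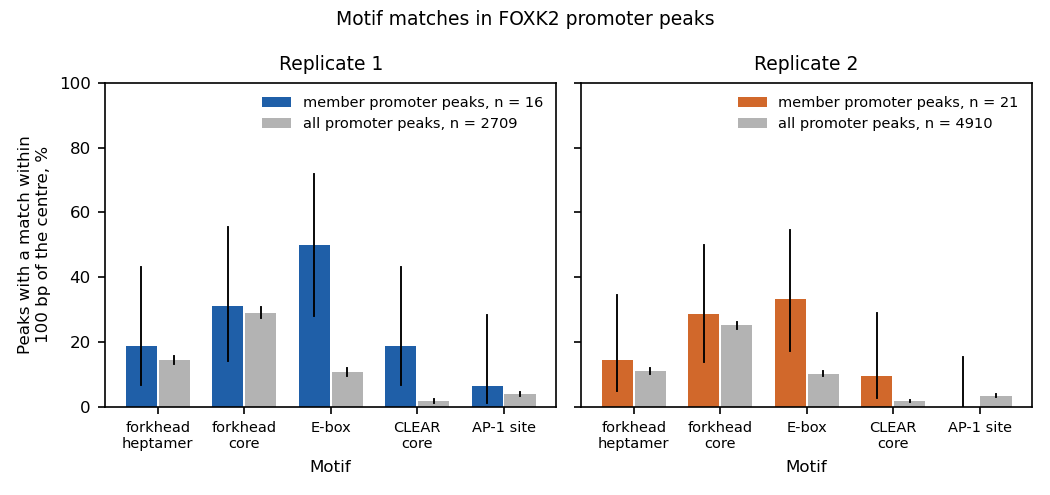
Share of promoter peaks, in percent, with a motif match within 100 bp of the peak centre, in replicate 1 and replicate 2, for member promoter peaks (16 and 21 peaks) and all promoter peaks (2709 and 4910 peaks). Lines are Wilson 95% intervals, and the E-box bar of members (50% and 33.3%) stands apart from that of all promoter peaks (10.7% and 10.1%).

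The E-box is also common at member promoters regardless of FOXK2 peaks. RefSeq promoter sequences of GRCh38.p14, from 250 bp upstream to 50 bp downstream of the start, were matched for 34 of the 47 members. CACGTG was in 12 of them (35.3%), against 8.88% of 15842 promoters of all protein-coding genes, and TCACGTGA in 6 (17.6%), against 1.43%. TGTTTAC was in 4 (11.8%), those of ATP6V1B1, ATP6V1G3, CTSF and CTSL, against 2.61%. Of the 9 matched members with a promoter peak in both lists, 5 held CACGTG and 3 held TGTTTAC.

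Promoter windows around every GENCODE start, used without nearest-gene assignment, took in further member promoters. With a promoter window of 1000 bp upstream to 100 bp downstream around every GENCODE transcript start, a peak centre fell in both lists in the window of 15 of 47 members (31.9%), against 14.8% of all protein-coding genes. The 4 genes beyond the 11 already named were GRN, ATP6V1F, SCARB2 and CTSA. Both GRN peaks had already been assigned to GRN, and only the class of the second had left that gene out. CTSA encodes protective protein/cathepsin A, which stabilizes lysosomal glycosidases, and its peak was assigned to the adjoining gene NEURL2, with scores of 7.92 (percentile 73.5) and 13.7 (85.1). It is shown because a pair of E-boxes lies beneath it, at chr20:45891290-45891318, on the strand of CTSA with CACGTG in capitals.
CTSA start region: tgtCACGTGgcgccggagttCACGTGact
The 2 E-boxes were 11 bp apart. HEXA, the alpha subunit of beta-hexosaminidase, had such a peak in replicate 2 only, assigned to its antisense gene HEXA-AS1 at percentile 72.1. At ATP6V1F the replicate 1 peak was assigned to FLNC-AS1 (4.90, percentile 32.7), and it overlapped the replicate 2 peak assigned to ATP6V1F. The SCARB2 peak lay at an alternative start and was assigned to NUP54 (5.85 and 11.5, percentiles 50.7 and 78.2). It held TGTTTAC in both lists, at -14 bp from the replicate 1 centre and -1 bp from the replicate 2 centre.

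Peaks outside promoters included several of the strongest of the set. ATP6V0D2, the form of the d subunit typical of osteoclasts and kidney, had 2 peaks in intron 1 in each list, of which the stronger, at +9966 and +9921 bp, scored 17.2 (96.7) and 28.3 (97.7). ATP6V1B1 had another peak at -15914 bp from its TSS in replicate 1 and -15912 bp in replicate 2, inside intron 1 of the neighbour VAX2, which scored 16.2 (96.1) and 29.1 (97.9). That peak was well above the ATP6V1B1 promoter peak in both lists. LAMP3, an inducible lysosomal membrane protein, had its single peak at -23004 and -23024 bp, within intron 27 of MCF2L2, at 11.9 (90.8) and 23.6 (96.4). With ATP6V1D, ATP6V0E1 and CTSF, the genes ATP6V0D2 and ATP6V1B1 made up the 5 members with the best mean percentile. That mean ran from 94.0 for CTSF to 97.4 for ATP6V1D. The same 5 genes led in replicate 2. In replicate 1, ATP6V0D2 (96.7) stood above ATP6V1D (96.4), and CTSF (89.9) stood below ATP6V0C (91.3) and LAMP3 (90.8). Of the 7 V-ATPase genes with tissue-restricted expression, 4 had a peak in both lists (ATP6V0A4, ATP6V0D2, ATP6V1B1 and ATP6V1G3; 57.1%, against 28.6% of all protein-coding genes), and 1, ATP6V1B1, had one of the promoter class in both (14.3%, against 9.31%). Of the other 15 V-ATPase genes, 7 had a peak in both lists (46.7%) and 5 a promoter peak in both (33.3%). Assignment of a distal peak to these genes is by distance to the TSS alone.

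The shared stretches of the ATP6V1B1 and LAMP3 distal peaks, at chr2:70919849-70920059 and chr3:183185778-183185988, are printed because neither held TGTTTAC within 100 bp of its centre while both held GTCAACA close to it. They are given on the strand of the gene they were assigned to, with GTCAACA and matches to the forkhead core RYAAAYA (R is A or G, Y is C or T) in capitals.
ATP6V1B1 distal peak: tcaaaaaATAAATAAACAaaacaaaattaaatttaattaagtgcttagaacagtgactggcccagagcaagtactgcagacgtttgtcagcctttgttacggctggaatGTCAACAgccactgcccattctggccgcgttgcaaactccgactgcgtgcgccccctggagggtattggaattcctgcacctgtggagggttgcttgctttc
LAMP3 distal peak: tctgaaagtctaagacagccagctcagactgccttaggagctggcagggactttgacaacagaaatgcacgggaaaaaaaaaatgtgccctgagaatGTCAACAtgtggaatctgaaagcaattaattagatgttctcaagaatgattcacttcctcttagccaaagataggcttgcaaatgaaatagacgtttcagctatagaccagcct
GTCAACA is the complement of TGTTGAC, which differs from TGTTTAC in a single base, and it was looked for after these sequences had been read. It lay 7 and 5 bp from the centres of the ATP6V1B1 distal peak and 5 and 15 bp from those of the LAMP3 peak. The SCARB2 intron 1 peak also held it, at 8 and 45 bp. Over all peaks TGTTGAC was within 100 bp of the centre in 8.31% and 7.73%, against 2.04% and 2.00% of the windows 2000 bp away. Member peaks as a whole were at that level, with 3 of 34 (8.82%) and 4 of 54 (7.41%), all outside promoters.

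Further distal peaks shared by both lists were weaker. The SCARB2 intron 1 peak, at +5400 and +5347 bp in a gene for a lysosomal membrane receptor, scored 6.79 (62.9) and 10.1 (72.1). A peak at -16993 and -16862 bp from PSAP, the precursor of the saposins that activate lipid hydrolases, scored 5.28 (40.9) and 12.0 (80.5). Both held TGTTTAC, at 75 and 22 bp from the 2 SCARB2 centres and 7 bp from the replicate 2 centre of PSAP alone, and both are printed on the strand of the gene, at chr4:76208541-76208607 and chr10:71868211-71868277, with the heptamer in capitals.
SCARB2 intron 1: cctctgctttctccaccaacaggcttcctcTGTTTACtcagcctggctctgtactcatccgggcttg
PSAP upstream: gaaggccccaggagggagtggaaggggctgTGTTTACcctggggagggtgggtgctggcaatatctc
ATP6V1H, a regulatory V1 subunit, had a shared peak in intron 11 (6.41 and 9.22), with the heptamer in the replicate 2 window alone. CTSC, a protease that activates serine proteases of immune cells, had a shared peak at -60923 and -60866 bp, scoring 5.47 (44.2) and 13.1 (83.6). The shared ATP6V0A4 peak lay in exon 11 (5.28 and 12.2) and that of ATP6V1G3 at -20494 and -20472 bp (4.53 and 7.29). Outside promoters, TGTTTAC was in 2 of 18 member peaks of replicate 1 (11.1%, 3.10% to 32.8%) and 8 of 33 of replicate 2 (24.2%, 12.8% to 41.0%), against 35.0% and 32.0% of all such peaks. The replicate 1 interval lay below the general share and the replicate 2 interval enclosed it. Several of these peaks share a gene, such as those of ATP6V1H, while the intervals treat peaks as independent. They are therefore not a test. The forkhead core RYAAAYA was near the general level in the same peaks, in 11 of 18 (61.1%, against 65.9%) and 22 of 33 (66.7%, against 63.8%).

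Related gene groups were read in the same way. Promoter peaks in both lists were found at 5 of 14 V-ATPase subunits and assembly factors without an ATP6V symbol (35.7%), at 7 of 57 other lysosomal genes (12.3%), at 2 of 9 genes of the TFEB axis (22.2%) and at 13 of 30 autophagy genes (43.3%). The other lysosomal genes were thus near the general share of 9.31%. Of all these genes, the 5 with the best shared promoter peaks were WIPI1, WIPI2, OXR1, NBR1 and ATG16L1. WIPI1, a phosphoinositide-binding autophagy protein, scored 78.1 and 165.5 and ranked 3 in both lists. Its relative WIPI2, which recruits ATG16L1 to forming autophagosomes, ranked 76 and 88. OXR1, whose protein carries a domain known to bind the V-ATPase, ranked 716 and 750. NBR1, an autophagy receptor, ranked 879 and 812, and ATG16L1 ranked 1091 and 485. No promoter peak of a lysosome or V-ATPase member ranked above 449 in replicate 1 or above 462 in replicate 2.

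**Figure D4:**
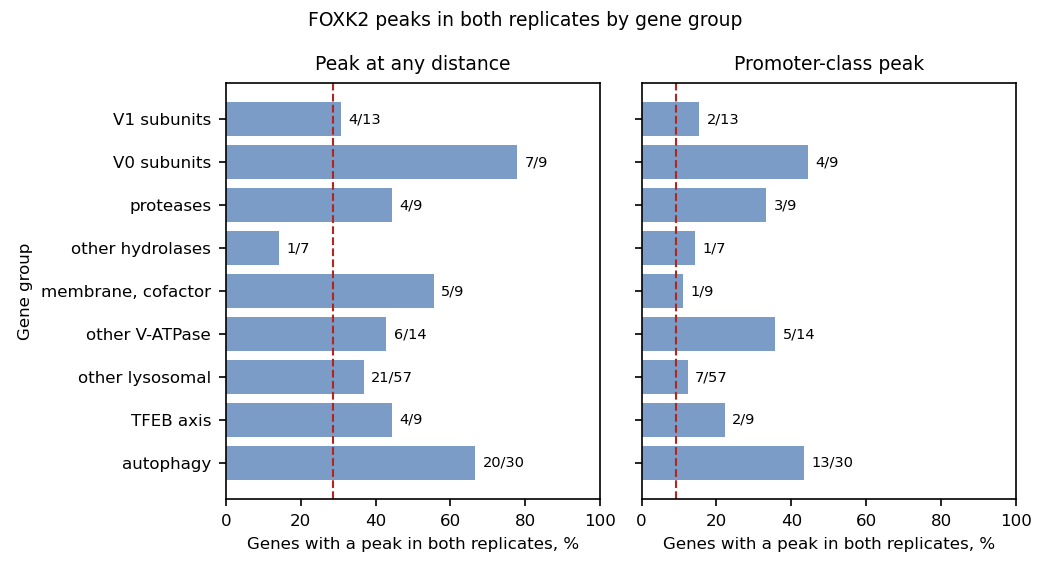
Share of genes of each group with a peak in both replicates, in percent, for peaks at any distance and for promoter-class peaks, with the number of genes beside each bar. Dashed lines mark all protein-coding genes (28.6% and 9.31%), and V0 subunits (7 of 9 and 4 of 9) and autophagy genes (20 of 30 and 13 of 30) lie furthest above them.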

How the data were processed

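FOXK2 ChIP-seq peak lists of 2 OVCAR5 replicates were used as deposited. According to the study's methods, the authors mapped reads to hg38 with Bowtie2 2.2.6 and called peaks with HOMER 4.10. The headers of the deposited lists name HOMER's annotation program and a peak file for each replicate, from which separate calling was inferred. Caller settings are not given in the sources used here. Each deposited row holds a peak score, the fraction of tags on the proper side of the centre, and other values such as the signed distance to the nearest TSS.

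From these, scores were ranked within each list, genes were matched to RefSeq by Entrez gene ID (20033 protein-coding genes), overlaps of at least 1 bp were counted, and motifs were looked for in hg38, on either strand, in the 100 bp to each side of peak centres. GENCODE release 44 gave alternative starts. Shares carry Wilson 95% intervals. Totals were 12471 and 27281 peaks; library depth was not analysed here. A single condition allowed no test between groups.

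Named genes were members with overlapping promoter peaks, members with TGTTTAC in an overlapping peak, the 5 best by mean percentile, members without a peak, and the 5 best of the related lists. GRN and other members are named beyond this rule, after their values were seen, to account for the set. The members and lists were chosen with earlier results of these data known. Alternatives covered list length, score, overlap, distance, promoter definition, motif and window. Overlap counting and motif search were first tested on simulated data. Software was Python 3.11.15, pandas 2.3.3, pysam 0.24.0, numpy 2.4.6, samtools 1.23.1, scipy 1.17.1 and matplotlib 3.10.9.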

Additional observations from a re-analysis of the deposited data

How the results depend on the processing

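No paired analysis was possible because both lists belong to a single group, and no list of the inputs was analysed here. Among 48 alternative values of the main counts, shares and medians, 38 stayed within the limits (1.5 times a count, the Wilson interval of a share, 1 SD between replicates for the median) and 10 moved. For single genes, leaving out a list only gives the percentile of the other, which is no check of stability. Accepting a peak in either replicate gave 33 members at any distance and 24 at promoters, instead of 21 and 11, while the share of all protein-coding genes rose to 54.4% and 23.8%. Single lists gave 24 to 30 members at any distance (all genes 31.3% and 51.7%), 15 to 20 at promoters (11.9% and 21.2%), and a median promoter percentile of 68.4 to 76.3, instead of 84.9. Limiting each list to its peaks at or above the median score raised the overlap of replicate 1 member peaks from 67.6% to 84.2% (all peaks 87.5%). Equal list lengths raised that of replicate 2 from 44.4% to 75.0% and lowered that of replicate 1 to 58.8% (all peaks 60.0% in both). TCACGTGA in place of CACGTG gave 18.8% and 9.52% of member promoter peaks, instead of 50% and 33.3%, by its longer sequence. CACGTG within 50 bp gave 37.5% and 19.0%, inside the intervals of the main shares but over 1.5 times lower in replicate 2. The core RYAAAYA in place of TGTTTAC gave 31.2% and 28.6% instead of 18.8% and 14.3%, inside the intervals, against 29.0% and 25.1% of all promoter peaks. TGTTGAC, chosen after seeing the data, gave 0 of 16 and 0 of 21, with Wilson upper bounds of 19.4% and 15.5%. Its share of all promoter peaks was 3.95% and 3.54%, inside those bounds. The replicate 1 peaks of ATP6V0E2 and ASAH1 held 22 and 20 tags, if a score step is 1 tag, near the list minimum of 16. Where causes are not given, they were not tested.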

Other observations

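Of the 23 ATP6V antisense genes and pseudogenes, 2 had a peak in at least 1 list. The share over all genes that are not protein-coding was not counted, so no general level stands beside this count. ATP6V0CP3, a pseudogene of the proton-ring subunit, had promoter peaks in both lists, which overlapped, at percentiles 0.746 and 61.3. The antisense gene ATP6V1B1-AS1 had a peak in replicate 1 alone, at percentile 32.7. Both counts of promoter peaks of the set, 16 and 21, include ATP6V0CP3, and its replicate 1 peak is among the 8 with CACGTG.

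Outside promoters the AP-1 site TGASTCA (S is C or G) was within 100 bp of the centre of 2 of 18 member peaks in replicate 1 (11.1%) and 8 of 33 in replicate 2 (24.2%), compared with 19.9% and 19.5% of all such peaks. The replicate 2 matches were at ATP6V0A4, ATP6V0D2, ATP6V1G1, ATP6V1H, CTSD, GUSB, PSAP and TPP1, and that of ATP6V0D2 lay in its stronger intron 1 peak, which held the site in both lists. Among other lysosomal genes, GNPTG, a subunit of the enzyme that tags hydrolases for the lysosome, had the best shared promoter peak (percentiles 86.0 and 92.8), with 2 CACGTG matches in each list. MITF, a relative of TFEB, had the best of the TFEB axis (84.6 and 88.1), with none.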
